A study of Mus musculus with 64 samples.

Results

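The 30 BXD strains fell into 11 strains with a high and 19 with a low level of Tmem45b in the proximal colon. A strain counted as high when its HFD and its CD array both lay above 14.16 on the log2 intensity scale, and as low when both lay below it. Every BXD strain met one of these conditions, so 22 arrays belonged to high and 38 to low strains, and 0 strains were left out. The high strains were BXD1, BXD27, BXD34, BXD45, BXD55, BXD62, BXD67, BXD69, BXD75, BXD81 and BXD84. The remaining 4 of the 64 arrays came from C57BL/6J and DBA/2J, the parental strains, and entered no group.

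All mice were males of 29 weeks. Those on the high-fat diet (HFD, 60.3% of energy as fat) received it from week 8, and those on the chow diet (CD, 18% fat) ate chow throughout. Before the colon was taken, mice of every group had been given back their own diet for 4 h. Each array held RNA of about 5 mice of 1 strain and diet, pooled, from a piece of proximal colon, so that every strain had 1 Clariom S array per diet and the spread between mice of a strain was not measured. BXD strains are inbred lines from crosses of C57BL/6J and DBA/2J, and each carries a fixed mosaic of the alleles of both. Genotypes were not used here, and the groups stand on a measured level alone. BXD48 and BXD48a are related by name and were both low, and the high strains numbered 2 of BXD1 to BXD32, 1 of BXD33 to BXD42 and 8 of BXD43 and above, against 5, 2 and 12 low strains.

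Tmem45b encodes a membrane protein with several predicted passes through the membrane, whose work in colon epithelium is poorly understood. On the same chromosome, chromosome 9, lies St3gal4, whose product is a Golgi enzyme that caps the galactose ends of glycan chains with sialic acid. Such caps sit on the mucins and surface proteins of gut epithelium and are a target of lectins and microbes. In a panel of inbred crosses, a gene whose level differs between the parental alleles often shows separate high and low strains, and genes close by on the chromosome are mostly inherited together with it.

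The level of Tmem45b left a wide gap between the groups. High arrays ranged from 14.96 (BXD1 on HFD) to 16.01 (BXD75 on CD) with a median of 15.41, and low arrays from 11.70 (BXD49 on HFD) to 13.37 (BXD32 on HFD) with a median of 12.82. The arrays nearest to the dividing level on each side were thus 1.58 apart. These values chose the groups, and they are given as a description only. Within strains, Tmem45b was lower on HFD in 8 of 11 high strains (mean HFD minus CD -0.27, from -0.89 in BXD1 to 0.19 in BXD81). It was lower on HFD in 9 of 19 low strains (mean -0.10, from -0.77 in BXD64 to 0.45 in BXD89). The rule would have left out any BXD strain with arrays on both sides of the dividing level, and 0 were left out. Both parental strains, which entered no group, had arrays on both sides.

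The parental strains and 3 low strains changed side between the diets at some genes. In C57BL/6J, Tmem45b read 15.28 on HFD and 12.02 on CD. In DBA/2J it read 11.93 on HFD and 15.52 on CD, so each parental strain was in the high range on 1 diet and in the low range on the other. St3gal4 turned the same way, with 15.14 on HFD and 7.98 on CD in C57BL/6J, and 9.62 on HFD and 15.21 on CD in DBA/2J. Hsd17b13, a gene of chromosome 5, read 10.58 on HFD and 14.43 on CD in C57BL/6J, and 15.51 on HFD and 10.53 on CD in DBA/2J. Nxpe5, of the same chromosome, read 12.66 on HFD and 4.75 on CD in DBA/2J, while it was low on both diets in C57BL/6J. Among BXD strains, Tmem45b was stable in BXD89 and BXD90, while St3gal4 was 12.96 on HFD and 8.69 on CD in BXD89, and 8.21 on HFD and 13.10 on CD in BXD90. In BXD87, Nxpe5 read 13.18 on HFD and 5.36 on CD. These 3 strains are all low. Whether the strain and diet labels of these and the parental arrays are right could not be settled from the files used here, so their diet differences are between arrays that carry those labels. Diet responses of the low strains are therefore given with and without BXD87, BXD89 and BXD90. Tissue markers were high throughout. Over the BXD arrays, Slc26a3, the chloride exchanger of colonocytes, was at 13.77 to 17.28, and the goblet cell mucin Muc2 at 19.88 to 19.93, next to the highest value of the table (19.93). Defa24, a Paneth cell defensin, exceeded 12 in 1 of 22 high arrays (16.07) and in 3 of 38 low arrays (15.77 to 19.57), whereas the other arrays stayed at or below 9.76 in high and 8.73 in low strains.

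**Figure D1:**
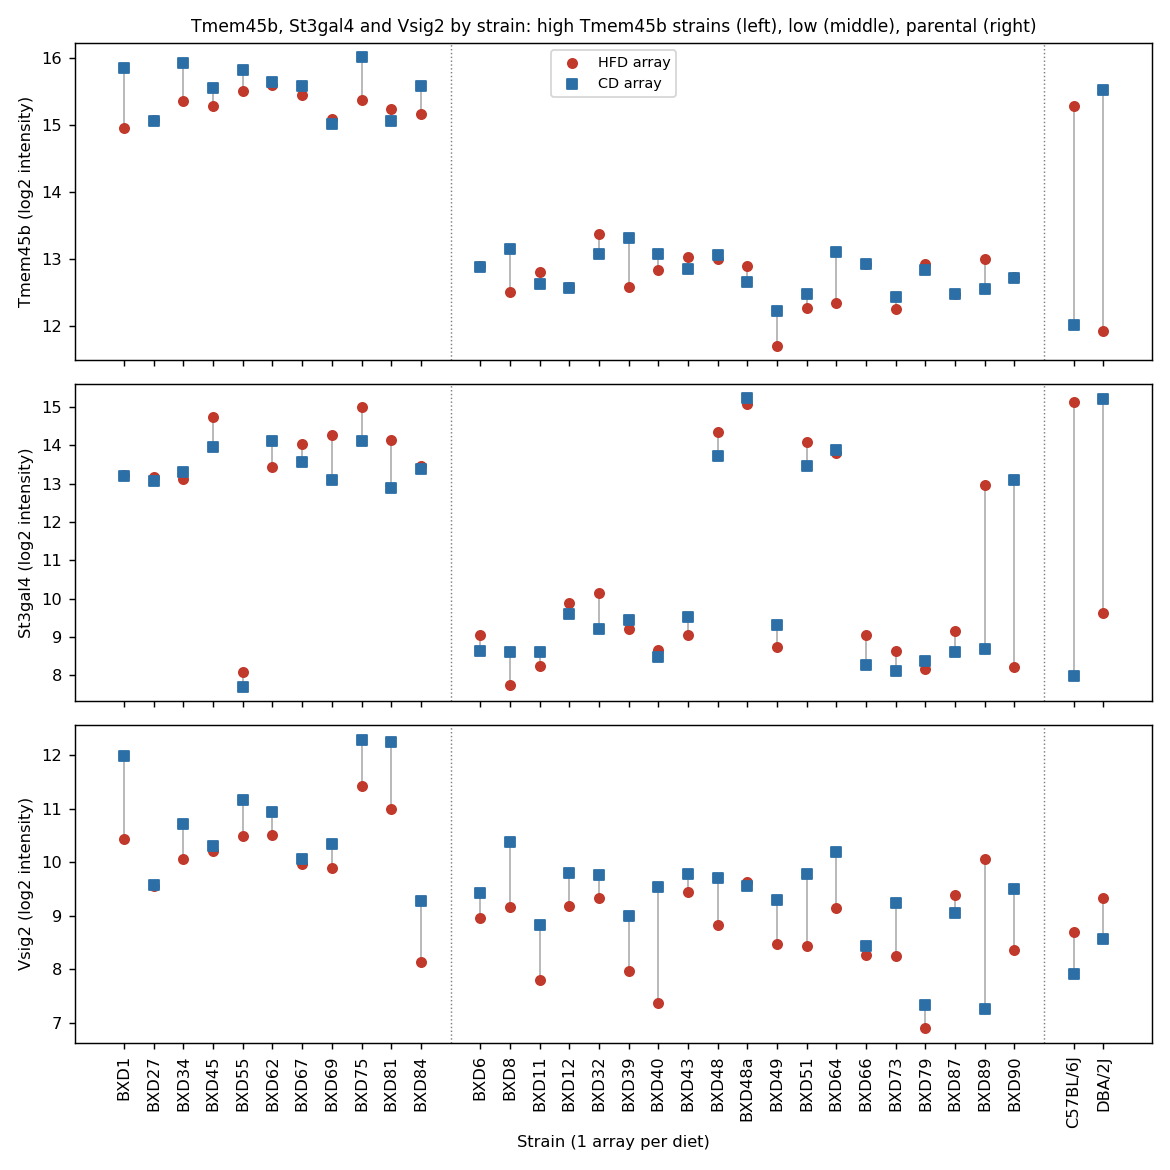
Tmem45b, St3gal4 and Vsig2 in every strain (log2 intensity, vertical axes), with HFD arrays as circles, CD arrays as squares and a line joining the arrays of a strain. High Tmem45b strains stand on the left, low strains in the middle and the parental strains on the right. St3gal4 is low in 1 of 11 high strains (BXD55) and turns between the diets in BXD89, BXD90, C57BL/6J and DBA/2J.

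St3gal4 stands 8 places from Tmem45b in the order of the measured genes of chromosome 9, with 7 measured genes between them. The sequence around its transcription start is shown because, beside Tmem45b, St3gal4 is the chromosome 9 gene with the largest difference between the groups. The window covers 250 bases before to 50 bases after the start (RefSeq, GRCm38.p6, chr9:35116815-35117114, minus strand), and the capitals mark the GC box GGGCGG, here read on the other strand as CCGCCC.
St3gal4: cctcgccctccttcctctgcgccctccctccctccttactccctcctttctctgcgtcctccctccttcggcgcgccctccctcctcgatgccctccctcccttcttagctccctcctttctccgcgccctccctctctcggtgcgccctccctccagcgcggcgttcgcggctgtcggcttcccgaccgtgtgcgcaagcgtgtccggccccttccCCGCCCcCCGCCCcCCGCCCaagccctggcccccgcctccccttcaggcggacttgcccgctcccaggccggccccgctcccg
The window was 74.0% G and C, against a median of 52.7% over 32851 mouse windows of this length, and held 31 CG pairs, against a median of 7. It held 3 GC boxes in a row, beginning 33, 26 and 19 bases before the start. At least 1 GC box on either strand is present in 35.7% of the windows. The letters TATAAA (in 13.6% of all windows), CCAAT (37.4%), CACCC (57.5%) and TTTATNG (10.9%), each read on both strands, do not occur in this window. None of the motifs searched overlapped another here. Whether the window differs between the parental strains was not examined.

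St3gal4 was high in most high Tmem45b strains and low in most low ones, with exceptions in both groups. In the high strains it ranged from 8.08 (BXD55) over a median of 13.47 to 14.99 (BXD75) on HFD, and from 7.70 (BXD55) over 13.31 to 14.13 (BXD75) on CD. In the low strains it ranged from 7.74 (BXD8) over a median of 9.06 to 15.09 (BXD48a) on HFD, and from 8.12 (BXD73) over 9.21 to 15.23 (BXD48a) on CD. No BXD array lay between 10.15 and 12.88, and 30 arrays stood on each side of this gap. Of the 11 high strains, 10 had both arrays above the gap and BXD55 had both below. Of the 19 low strains, 13 had both arrays below it, BXD48, BXD48a, BXD51 and BXD64 had both above, and BXD89 and BXD90 had 1 on each side. Thus 23 of 30 strains had both St3gal4 arrays on the side of their Tmem45b group, and the groups overlapped over nearly the whole range.

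Strain means of St3gal4 averaged 13.14 ± 1.80 in high strains and 10.19 ± 2.27 in low strains (SD, n = 11 and 19), a log2 difference of 2.95 (standard error 0.72, 95% interval 1.50 to 4.41). A permutation test of this value alone, over strains, gave p = 0.00116 (two-sided, 100000 resamples), but St3gal4 had been chosen with its pattern known. In limma, across all genes, the adjusted p was 0.438, so the gene was not called. The difference was 3.11 on HFD and 2.80 on CD. Without BXD55, the 1 high strain whose St3gal4 was low, it was 3.48 and was called (adjusted p = 0.0415). This was the only call of St3gal4 among 30 fits that each left out 1 strain (adjusted p up to 0.687). With the arrays fitted singly and strain as a random replicate block, St3gal4 was also called (adjusted p = 0.0107). That fit gave all genes the same correlation between arrays of a strain (0.13). It thus counted the arrays of a strain as nearly separate, although those of St3gal4 mostly agreed. Without BXD87, BXD89 and BXD90 the difference was 2.94 (adjusted p = 0.672), and in the strains from BXD43 upwards 2.23 (adjusted p = 0.797). Between the arrays labelled HFD and CD, St3gal4 differed by 4.27 in BXD89 and -4.90 in BXD90 (HFD minus CD), the strains whose labels are in doubt, and by at most 1.28 in either direction in the other 28 BXD strains.

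The 1 gene called between the groups was Vsig2, also on chromosome 9, 45 places from Tmem45b on the side of St3gal4. Vsig2 encodes a membrane protein of the immunoglobulin superfamily, known from gut epithelium in humans. On HFD it ranged from 8.13 (BXD84) over a median of 10.21 to 11.42 (BXD75) in high strains, against 6.90 (BXD79) over 8.82 to 10.06 (BXD89) in low strains. On CD it ranged from 9.28 (BXD84) over 10.71 to 12.29 (BXD75) in high strains, against 7.25 (BXD89) over 9.51 to 10.37 (BXD8) in low strains. BXD89, a strain whose labels are in doubt, was thus the highest low strain on HFD and the lowest on CD. Of the high strains, 9 of 11 had a strain mean above that of every low strain. BXD84 (8.70) and BXD27 were the exceptions, so that the groups overlapped.

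Strain means of Vsig2 averaged 10.48 ± 0.91 in high strains and 8.97 ± 0.65 in low strains (SD, n = 11 and 19), a difference of 1.51 (standard error 0.26, 95% interval 0.98 to 2.04, adjusted p = 0.0275 in limma). It was 1.47 on HFD and 1.55 on CD, and in neither diet alone was the gene called. The call was not firm. It held in 20 of the 30 fits that each left out 1 strain, with adjusted p from 0.000943 to 0.116, and was lost without BXD1, BXD11, BXD34, BXD39, BXD40, BXD66, BXD73, BXD75, BXD81 or BXD89, while the difference stayed between 1.37 and 1.69. Without BXD87, BXD89 and BXD90 the difference was 1.50 (adjusted p = 0.132). In BXD55, whose St3gal4 was low, Vsig2 was high (10.49 on HFD and 11.17 on CD). In BXD48, BXD48a, BXD51 and BXD64, whose St3gal4 was high, Vsig2 was at 8.43 to 9.63 on HFD and 9.55 to 10.19 on CD.

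**Figure D2:**
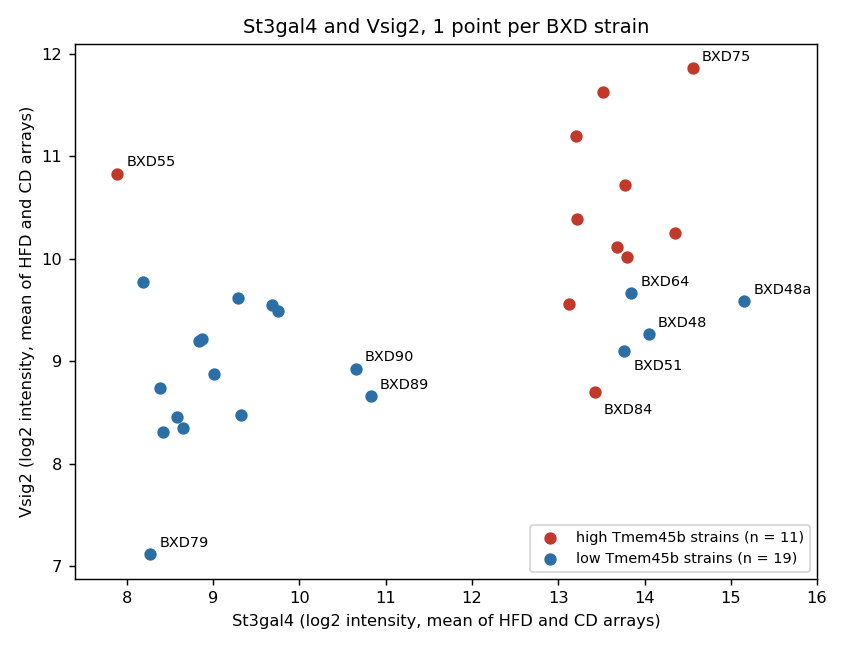
Strain means (of the HFD and CD arrays) of St3gal4 (horizontal, log2 intensity) and Vsig2 (vertical, log2 intensity), 1 point per BXD strain, with high Tmem45b strains in red and low ones in blue. BXD55 is the 1 high strain on the left, and BXD48, BXD48a, BXD51 and BXD64 are low strains with high St3gal4.

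None of the genes that flank Tmem45b and St3gal4 was called. Over all 19502 genes tested, 1 was called (0.00513%), and on chromosome 9 it was 1 of 1128 (0.0887%). At an unadjusted p of 0.05, 56 of the chromosome 9 genes passed (4.96%), against 973 of 18374 genes of the other chromosomes (5.3%) and 1029 of all genes (5.28%). Within a single diet 0 genes were called. On HFD arrays the unadjusted share was 3.56% over all genes, 3.9% on chromosome 9 and 3.54% elsewhere, and on CD arrays it was 7.8%, 8.16% and 7.78%. Beside St3gal4, the nearest 5 genes on each side of Tmem45b and of St3gal4 were 17, and none of them was called. Their differences lay between -0.41 and 0.10. Nfrkb, the gene next to Tmem45b on one side, averaged 8.16 ± 0.25 in high and 8.35 ± 0.27 in low strains, and Barx2, a homeobox gene next to it on the other side, 5.76 ± 0.31 in high and 5.97 ± 0.20 in low strains (adjusted p = 0.913 for each). Kcnj1, an inward rectifier potassium channel that stands 4 places away, had the lowest difference of these neighbours, with 4.15 ± 0.36 in high and 4.56 ± 0.33 in low strains (difference -0.41, standard error 0.13, adjusted p = 0.760). The ETS transcription factors Fli1 and Ets1 differed by -0.08 and -0.20, the adaptor gene Tirap beyond St3gal4 by 0.07, and Srpr, a subunit of the signal recognition particle receptor, by 0.09. The serine protease gene St14 differed by -0.06, Aplp2 by -0.02, Zbtb44 by -0.02, Gm7244 by -0.23, Arhgap32 by 0.10, Kcnj5 by 0.02, Kirrel3 by -0.13, Dcps by 0.09, Foxred1 by -0.01 and Fam118b by -0.03.

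In a wider window of 60 places on each side of Tmem45b, 7 of 120 genes had an unadjusted p below 0.05 and Vsig2 alone was called. The median absolute difference there was 0.09, beside 0.08 over all genes. Cdon, a co-receptor of hedgehog signalling that stands 15 places away, averaged 7.58 ± 0.22 in high and 7.95 ± 0.29 in low strains (difference -0.37, standard error 0.10, adjusted p = 0.580) and was named after its values were seen. Whether probes on bases that differ between the parental strains contribute to the levels of Tmem45b, St3gal4 or Vsig2 was not tested.

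**Figure D3:**
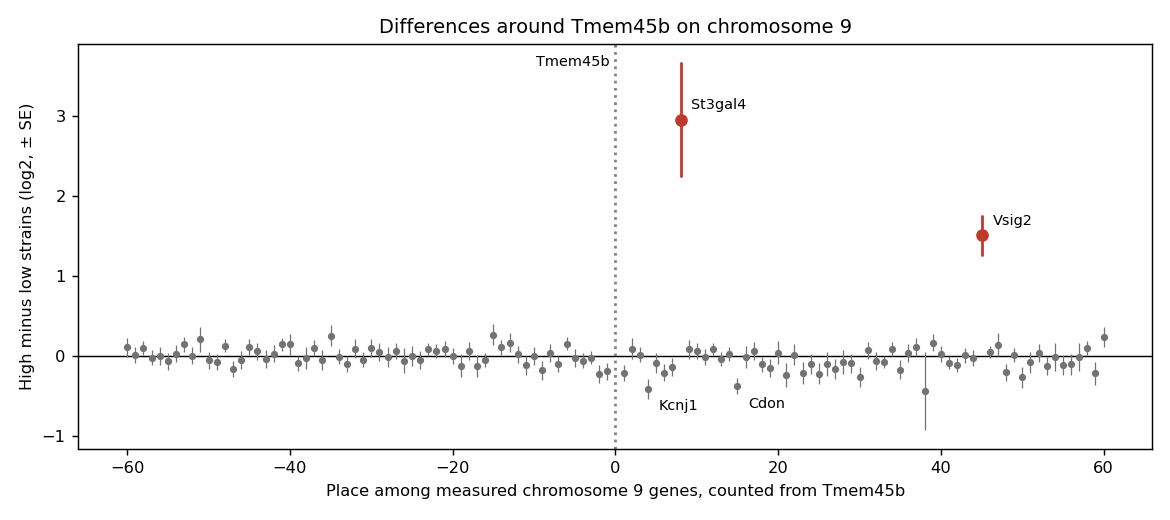
Difference between high and low Tmem45b strains (log2, high minus low, with standard error bars) for the measured genes up to 60 places on each side of Tmem45b, in their order along chromosome 9 (horizontal axis). St3gal4 (2.95) and Vsig2 (1.51) stand apart from the other genes of the window, and Tmem45b itself, which chose the groups, is marked by the dotted line only.

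On the other chromosomes, 0 of 18374 genes were called in limma (0%), and no gene other than Tmem45b had strain means that did not overlap between the groups (0% of 19502). With strain as a random replicate block, which counted the arrays of a strain as nearly separate (correlation 0.13), 1 gene of another chromosome was called. This was Atp6v1g1, a subunit gene of the vacuolar proton pump on chromosome 4, which averaged 11.65 ± 0.34 in high and 11.01 ± 0.40 in low strains (difference 0.64, standard error 0.14, adjusted p = 0.237 on strain means and 0.0107 with the block). Chek2, a kinase of the DNA damage response on chromosome 5, averaged 7.95 ± 0.31 in high and 7.47 ± 0.23 in low strains (0.48, standard error 0.10, adjusted p = 0.237). Of the high strains, 9 of 11 lay above every low strain in Chek2. BXD62 had the lowest mean of the high strains (7.16), and the gene was called without it (adjusted p = 0.00939). Emc3, a subunit gene of a membrane protein insertion complex on chromosome 6, averaged 10.78 ± 0.31 in high and 10.31 ± 0.23 in low strains (0.47, standard error 0.10, adjusted p = 0.237). It was called without BXD55 (adjusted p = 0.0415), which had its lowest mean of the high strains (10.23). Vmn2r2, a vomeronasal receptor gene on chromosome 3, averaged 4.73 ± 0.35 in high and 5.18 ± 0.22 in low strains (-0.44, standard error 0.11, adjusted p = 0.438), and without BXD27 the difference was -0.53 and was called (adjusted p = 0.0135). For Chek2, Emc3 and Vmn2r2 alike, this was the only call among the 30 fits that each left out 1 strain.

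The widest difference outside chromosome 9 came from a gene with separate high and low strains of its own. Nxpe5, a member of the neurexophilin and PC-esterase family, averaged 6.63 ± 3.40 in high Tmem45b strains and 9.59 ± 3.70 in low ones (difference -2.95, standard error 1.22, adjusted p = 0.913). Its strain means ran from 3.82 to 12.32 in high and from 3.68 to 12.99 in low strains, so the groups overlapped over nearly all of the range. Hsd17b13, a lipid droplet enzyme gene that is also on chromosome 5, averaged 12.95 ± 1.69 in high and 14.49 ± 1.61 in low strains (-1.54, standard error 0.56, adjusted p = 0.893). These 6 genes of other chromosomes were named after their values were seen.

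No other gene of the families of Tmem45b and St3gal4 was called between the groups. Tmem45a differed by 0.15 (standard error 0.09, adjusted p = 0.913) and Tmem45a2 by 0.01. Of the 24 measured sialyltransferase and sialic acid genes 0 were called, and the 23 other than St3gal4 lay between -0.25 and 0.26. St3gal6, which makes the same kind of linkage as St3gal4, averaged 12.42 ± 0.66 in high and 12.16 ± 0.57 in low strains (0.26, standard error 0.21, adjusted p = 0.931), and St3gal3 12.86 ± 0.60 in high and 12.76 ± 0.38 in low strains. Gne, whose product starts sialic acid synthesis, was at 17.57 ± 0.28 in high and 17.64 ± 0.21 in low strains. Among 16 fucosylation and blood group genes and 22 genes of mucin-type glycans, 0 were called. B4galnt2, which makes a blood group type glycan of the gut surface, differed by -0.21 (unadjusted p = 0.0452), and B3gnt3, a chain-extending enzyme of mucin-type glycans, by 0.47 (unadjusted p = 0.0444).

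The 33 gene lists, with 434 measured entries, held 0 called genes, and 24 of their medians lay within 0.1 of 0, beside a median of -0.003 over all genes. Enteroendocrine genes had the highest list median (0.19, 10 genes). Gcg, the proglucagon gene, differed by 0.46 and Pyy, another gut hormone gene, by 0.36, both with an adjusted p of 0.913. In 11 B and plasma cell genes the median was -0.20 and all 11 differences were below 0, from -0.01 for Xbp1 to -0.31 for Jchain, both named after their values were seen. In such tissue RNA, fewer cells of a type and less RNA per cell cannot be told apart. The 8 pancreas genes had a median of -0.33, with 7 below 0. Over all 19502 genes, 9571 differences were above 0. Other lists also leaned to 1 side, among them heat shock (13 of 14 above 0), tuft cell (8 of 9) and distal colon position (6 of 6). Genes of a list were measured on the same arrays and are not separate observations. Goblet cell genes had a median of 0.00 (15 genes), with Agr2, needed for mucin folding, at 0.38 (unadjusted p = 0.0240), and absorptive colonocyte genes likewise (17 genes). In the Paneth and ileal list (19 genes, median -0.09), Defa21 and Defa22 differed by -1.11 and -1.01, beside the 3 low arrays and 1 high array rich in Defa24, whose part in this was not tested. Il18, an interleukin gene on chromosome 9, was at 12.28 in high and 11.65 in low strains (0.63, standard error 0.19, adjusted p = 0.749), the lowest p among acute phase and antimicrobial genes.

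**Figure D4:**
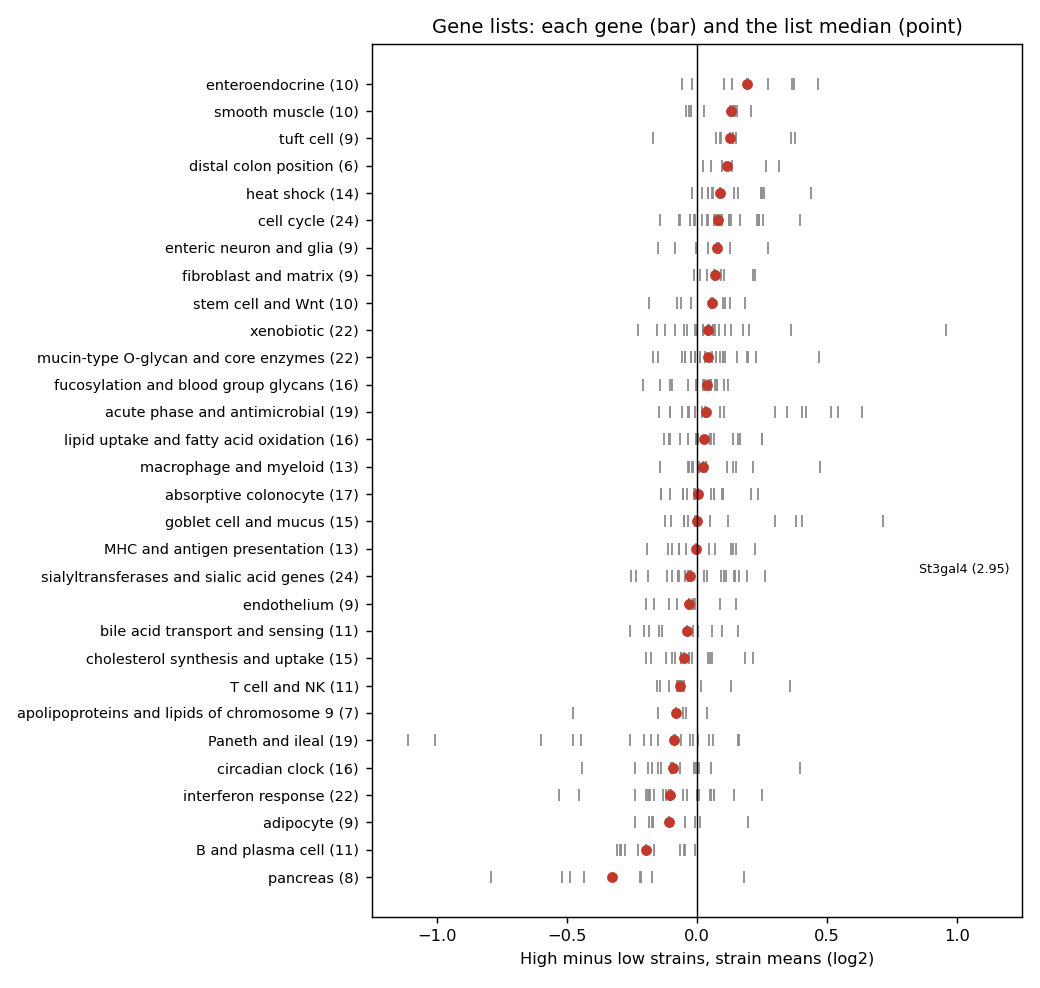
Difference between high and low Tmem45b strains (log2, high minus low, horizontal axis) for each gene of 30 lists with 5 or more measured genes (grey bars) and the list median (red points), with the number of measured genes in brackets. The medians lie between -0.33 and 0.19, and St3gal4, beyond the axis, is given by its value.

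On HFD against CD, the groups of strains shared a part of their called genes. Both groups were fitted with a shared estimate of the spread, so standard errors and p values in either group rest on the strains of both. For Ces2a, the SD of the response was 0.48 in high and 1.19 in low strains. In the 11 high strains 292 genes were called (1.5% of 19503), of which 68 rose (0.349%) and 224 fell (1.15%) on HFD. In the 19 low strains 97 were called (0.497%), of which 43 rose (0.22%) and 54 fell (0.277%). The lists shared 57 genes, which are 19.5% of the high-strain calls and 58.8% of the low-strain calls, and all 57 had the same sign. The count in the low strains changed widely with the strains included. Without BXD87, BXD89 and BXD90 it was 367, while it was 32 without the 4 strains that had a Defa24-rich array. Through the shared spread, p values of the high strains change in such fits too. The 367 is therefore not to be set against the 292 from the fit of all strains. The test of the difference in response itself called 0 genes in limma (0% of 19503), with 1156 at an unadjusted p below 0.05 (5.93%).

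Several drug-metabolising genes fell in both groups. Ces2a, a carboxylesterase gene, was at 12.54 to 14.17 on HFD and 14.21 to 16.24 on CD in high strains, with no overlap between the diets. In low strains it was at 11.58 to 15.31 on HFD and 13.41 to 16.03 on CD. It fell by 1.95 (standard error 0.27, adjusted p = 0.000164) in high strains, in 11 of 11, and by 1.56 (0.21, adjusted p = 6.16e-05) in low strains, in 17 of 19. Alas1, the first enzyme of haem synthesis, fell by 1.72 (0.21, adjusted p = 2.05e-05) in high strains, in 11 of 11, and by 1.21 (0.16, adjusted p = 6.16e-05) in low strains, in 17 of 19. The difference of these responses, high minus low strains, was -0.40 for Ces2a (95% interval -1.09 to 0.30) and -0.51 for Alas1 (-1.05 to 0.03). Without BXD87, BXD89 and BXD90 the low strains fell by 1.90 in Ces2a and by 1.50 in Alas1, and the differences were -0.05 and -0.22. Of 22 xenobiotic genes, 9 were called as falling in high strains and 7 in low strains, beside 1.15% and 0.277% of all genes. None was called as rising in either group. For the difference in response none was called, as over all genes. Ces2a, Alas1 and Cyp2c55 of this list are also among the genes known to respond to diet in this series, chosen on these samples. The counts of falling genes in this list are thus in part set by that choice.

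Irf7, which switches on interferon genes, fell by 1.91 (standard error 0.29, adjusted p = 0.000526) in high strains and by 1.20 (0.22, adjusted p = 0.00473) in low strains, with a difference of -0.71 (95% interval -1.45 to 0.03, adjusted p = 0.841). The response of low strains was -1.45 and the difference -0.46 without BXD87, BXD89 and BXD90. Saa1, a serum amyloid gene, rose by 1.71 (0.36, adjusted p = 0.00890) in high strains, in 11 of 11, and by 1.24 (0.27, adjusted p = 0.0258) in low strains, in 17 of 19 (1.77 without BXD87, BXD89 and BXD90, and 1.20 with an adjusted p of 0.0957 without the 4 strains that had a Defa24-rich array). Fabp6, the ileal bile acid binding protein gene, rose by 2.80 (0.76, adjusted p = 0.0490) in high strains, and its change of 2.06 (0.58) in low strains did not pass (adjusted p = 0.0920). Without BXD87, BXD89 and BXD90 the low strains rose by 2.54 (adjusted p = 0.0210), and the difference in response was 0.26, against 0.74 with them. The 3 strains whose HFD array alone was rich in Defa24 were among those with a wide Fabp6 response. Fabp6 differed by 7.03 in BXD69, 12.20 in BXD49 and 5.76 in BXD39, where Defa24 differed by 8.45, 11.97 and 9.61 (HFD minus CD). In BXD48a, whose CD array was the rich one, Fabp6 differed by -1.73. Without these 4 strains Fabp6 rose by 2.38 in high strains (adjusted p = 0.00934) and its response in low strains was 1.43 (adjusted p = 0.107). The antimicrobial lectin genes Reg3b and Reg3g rose by 1.69 and 1.86 in low strains (adjusted p = 0.0469 and 0.0444), and their changes of 1.62 and 1.55 in high strains did not pass. The values in low strains were 1.54 and 1.61 without BXD87, BXD89 and BXD90, and did not pass either (adjusted p = 0.0681 and 0.0761). Differences in response for Reg3b were -0.07 (95% interval -1.45 to 1.30) and for Reg3g -0.31 (-1.78 to 1.16), so that the wide intervals leave room for sizeable differences either way.

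Of 14 genes known to respond to diet in this series, chosen on these samples, 12 had a larger absolute response in high than in low strains, with median sizes of 1.58 and 1.21. In BXD89 and in BXD90, 9 of the 14 genes moved against the mean of the high strains, and in BXD87 6 did. Without these 3 strains the median size in low strains was 1.50, and 9 of 14 were larger in high strains. Saa1 then responded by 1.71 in high and 1.77 in low strains, and Ces2a by -1.95 in high and -1.90 in low strains. For Irf7 the values were then -1.91 in high and -1.45 in low strains. The 3 strains are all low and moved against the high strains in more of these genes than any other strain. Leaving them out thus tends, by that choice, to bring the low strains nearer to the high ones. The 14 genes were measured on the same arrays and are not separate observations, so these counts are a description only.

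**Figure D5:**
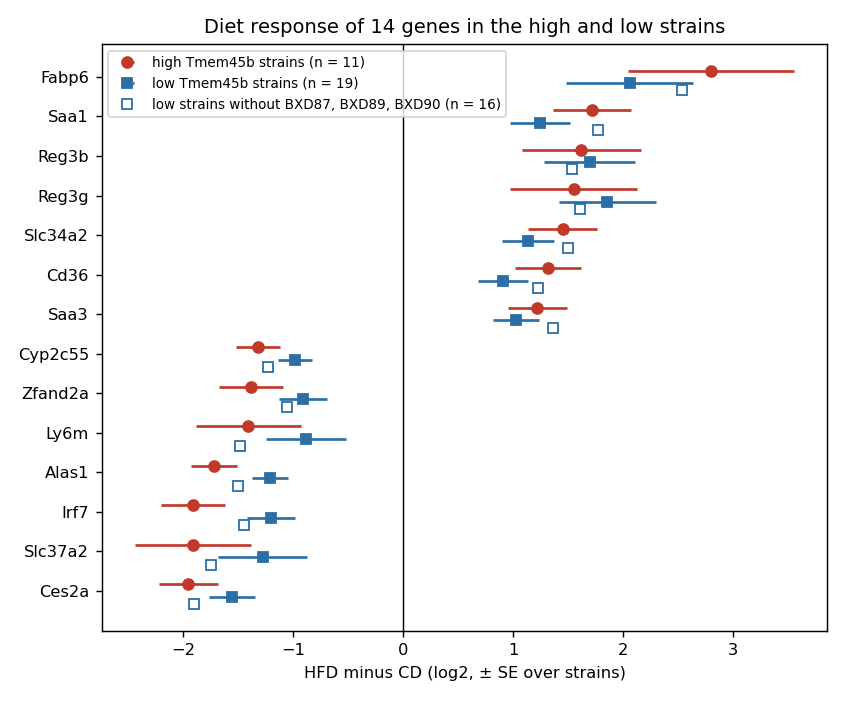
Response to diet (log2, HFD minus CD, horizontal axis) of 14 genes in high Tmem45b strains (red circles, n = 11) and low Tmem45b strains (blue squares, n = 19), with standard errors from the spread of both groups together. Open squares are means of the low strains without BXD87, BXD89 and BXD90 (n = 16), and for Saa1 and Ces2a they lie close to the high strains. The strains left out were those that most often moved against the high strains in these genes.

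In both groups some epithelial genes outside these lists of responders changed with diet. Spdef, a transcription factor of goblet cells, fell by 1.41 (standard error 0.25, adjusted p = 0.00261) in high strains and by 0.77 (0.19, adjusted p = 0.0486) in low strains, with a difference of -0.64 (95% interval -1.27 to -0.01, adjusted p = 0.836). BXD87, BXD89 and BXD90 went the other way in Spdef (0.92, 0.62 and 0.19), and without them the low strains fell by 1.02 and the difference was -0.39. Gcnt3, which branches mucin glycans, fell by 0.66 (adjusted p = 0.0190) in high strains and by 0.49 (adjusted p = 0.0462) in low strains. Tph1, the serotonin-making enzyme of enteroendocrine cells, fell by 0.97 (adjusted p = 0.00727) in high strains and by 0.72 (adjusted p = 0.0208) in low strains. Pyy of the same list went the other way, by 0.61 (adjusted p = 0.149) in high and 0.75 (adjusted p = 0.0254) in all 19 low strains. List medians of the response were -0.28 in high and -0.004 in low strains for 10 enteroendocrine genes. For 15 goblet cell genes they were -0.003 in high and -0.03 in low strains. Pck1, a gluconeogenic enzyme gene, fell by 0.99 in high and by 1.00 in low strains (adjusted p = 0.00691 and 0.000518), a difference of 0.01. In BXD89 and BXD90 Pck1 was higher on HFD (0.65 and 1.01). With BXD87, BXD89 and BXD90 left out, the low strains fell by 1.24 in Pck1, by 0.89 in Tph1 and by 0.62 in Gcnt3, and the differences were 0.26, -0.09 and -0.04. Spdef, Gcnt3, Tph1 and Pck1 were named after their values were seen, as was the response of Pyy. Vsig2 was lower on HFD in 11 of 11 high strains and 16 of 19 low strains, with mean responses of -0.66 (adjusted p = 0.165) and -0.58 (adjusted p = 0.148) that did not pass. With BXD87, BXD89 and BXD90 left out, Vsig2 fell by 0.66 in high strains (adjusted p = 0.0194) and by 0.81 in low strains (adjusted p = 0.000304). The high strains were the same in that fit, but their standard error, which rests on both groups, went from 0.24 to 0.16. St3gal4 responded by 0.39 (adjusted p = 0.691) in high and by 0.07 (adjusted p = 0.951) in low strains.

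Some of these diet calls were close to the threshold. Of 30 fits that each left out 1 strain, the call of Fabp6 in high strains held in 7 and that of Gcnt3 in 26. In low strains, the call of Saa1 held in 22 fits, Reg3g in 15, Reg3b in 9, Spdef in 7 and Gcnt3 in 7. The calls of Ces2a, Alas1, Irf7, Tph1 and Pck1 held in all 30 in both groups. Without the 4 strains that had a Defa24-rich array, the responses of low strains in Spdef (-0.65), Gcnt3 (-0.45) and Tph1 (-0.58) did not pass (adjusted p = 0.204, 0.165 and 0.113), nor did that of high strains in Gcnt3 (-0.63, adjusted p = 0.0519).

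The 10 genes with the smallest p for the difference in response all had opposite signs in the groups, which a ranking by that difference favours. None was called (adjusted p from 0.465 to 0.586). Ntrk3, a neurotrophin receptor gene, responded by 0.61 (standard error 0.13) in high and by -0.19 (0.10) in low strains, a difference of 0.81 (95% interval 0.47 to 1.15, adjusted p = 0.465). Klre1, a receptor gene of natural killer cells, responded by 0.72 in high and -0.35 in low strains, and Tada2b, a subunit gene of histone acetyltransferase complexes, by -0.36 in high and 0.35 in low strains. The others were Luc7l, Fstl5, Gm14594, Gm20822 and the odorant receptor genes Olfr146, Olfr286 and Olfr1355.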

How the data were processed

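Proximal colon RNA was measured on 64 Clariom S arrays. The authors deposited log2 intensities, summarised with Array Power Tools 2.11.3 (gc-sst-rma-sketch), and these were used unchanged. They state that probes on polymorphic bases were ignored; whether the deposited values include this is not given in the sources used here. Of 22199 probesets, 19570 had 1 gene symbol, 0 several and 2629 none; the median over probesets gave 19503 genes, placed on chromosomes through the RefSeq gene table of GRCm38.p6. No low-value filter was applied.

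Strain means of the HFD and CD arrays were compared between high and low Tmem45b strains with limma 3.58.1 (lmFit and eBayes, R 4.3.3), two-sided, with Benjamini-Hochberg adjustment over 19502 genes, called at 0.05. Diet responses were tested on HFD minus CD within strain, with a spread estimate shared by the high and low strains. Arrays of 1 strain label were taken as a pair. Across genes, their deviations from the diet means had a correlation over 0.1 in 22 of 30 pairs. The median correlation was 0.21 and the lowest -0.03, against a median of -0.01 between arrays of different strains. Since each strain and diet has 1 array, p values measure the spread between strains, whose number limits precision.

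The members and lists were chosen with earlier results of these data known. The rule for named genes was: Tmem45b and St3gal4, the called genes with the largest differences, the nearest 5 genes on each side of both, the leading 2 genes of each list, the 10 genes with the smallest p for a difference in response, and members of 3 lists (129 genes). On simulated data of the same size and groups, 38 of 50 genes changed by 0.5 and 48 of 50 changed by 1 were called. The same data held 50 genes changed by 2 and 50 changed by -1, of which 50 and 49 were called. Of 19303 unchanged genes, 8 were called. Recovery with fewer changed genes was not tested. Python 3.11.15, scipy 1.17.1 and matplotlib 3.10.9 were used for permutation tests and figures. Alternatives covered scaling, a filter, probesets, the variance model, a strain block and sets of strains.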

Additional observations from a re-analysis of the deposited data

Results flagged for a closer look

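Tmem45b in the C57BL/6J HFD array (15.28) and in the DBA/2J CD array (15.52) lay above every array of the low strains, although the other array of each parental strain read 12.02 (C57BL/6J on CD) and 11.93 (DBA/2J on HFD). These arrays were outside the comparisons, and no test was made.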

How the results depend on the processing

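The difference of St3gal4 and that of Vsig2 were positive in every fit run. Over fits that each left out 1 strain, St3gal4 ranged from 2.81 to 3.48, genes called on strain means from 0 to 3 (chromosome 9, 0 to 2; other chromosomes, 0 to 1), on CD arrays from 0 to 1, on HFD arrays from 0 to 1, and genes called for the difference in response 0. Genes called for HFD minus CD ranged from 124 (without BXD34) to 359 (without BXD51) in high strains and from 26 (without BXD43) to 230 (without BXD89) in low strains. The call of Vsig2, and with it the count on strain means and on chromosome 9, fell to 0 with a variance trend and robust variances, without BXD87, BXD89 and BXD90, without BXD49 and BXD81, without the strains with a Defa24-rich array (BXD39, BXD48a, BXD49 and BXD69), in strains from BXD43 upwards and without BXD48a, BXD87, BXD89 and BXD90 (added after seeing the data). With strain as a random replicate block (the same correlation of 0.13 for all genes), 3 genes were called (Vsig2, St3gal4 and Atp6v1g1; 2 on chromosome 9 and 1 elsewhere), with St3gal4 at 2.95. Without BXD48a, BXD87, BXD89 and BXD90, 1 gene was called on HFD arrays. Diet calls in high strains were 172 with a variance trend, 3 in strains from BXD43 upwards and 145 with no replicate block. In low strains they were 193 in the upper 60% of genes, 20 with a variance trend, 367 without BXD87, BXD89 and BXD90, 32 without the Defa24-rich strains, 0 from BXD43 upwards, 390 without BXD48a, BXD87, BXD89 and BXD90, and 24 with no replicate block. Differences near 0 turned sign for Aplp2 (0.0046 with arrays centred on their median), Foxred1 (0.012 with centred arrays, 0.0090 without BXD48a, 0.043 without BXD49 and BXD81, 0.015 without the Defa24-rich strains), Kcnj5 (-0.020 without those strains) and Fam118b (0.025 from BXD43 upwards). The causes were not tested.

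With 11 against 19 strains, 1 array per strain and diet, and genes that themselves differ between strains, a gene that missed the threshold is not shown to be equal in the groups. Genes near the top of the scale, such as Muc2, have little room to differ.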

Other observations

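Of 32 measured genes of chromosome Y, 8 had an unadjusted p below 0.05 between high and low Tmem45b strains (25%, against 5.28% over all genes), 7 of them lower in high strains, and 0 were called (lowest adjusted p = 0.828 in limma). Gm20738 differed by -0.87 (7.24 in high and 8.11 in low strains) and Kdm5d, a histone demethylase gene, by 0.22 (7.99 in high and 7.76 in low strains). Many chromosome Y genes named Gm belong to families of near-identical copies whose probes can share signal, so that those named Gm may not be separate observations.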
